A study of Sus scrofa with 27 samples.

Results

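The 2 gonadotropin receptors, FSHR and LHCGR, and 8 genes of the cAMP signal that follows them were followed in porcine mural granulosa cells (GCs), the GCs that line the inner wall of the follicle. The genes were chosen by name: the receptors FSHR and LHCGR, the stimulatory G protein subunit GNAS, the protein kinase A (PKA) subunits PRKACA, PRKACB, PRKAR1A, PRKAR2A and PRKAR2B, the phosphodiesterase PDE4D and the transcription factor CREB1. Of these 10 genes, 9 were matched by symbol to a row of the count tables, and all 9 had enough counts to be tested among 11384 genes. GNAS carries no symbol in the identifier table used here and was not analysed. The sows were primiparous crossbreds of Large White and Norwegian Landrace, wild type in genotype. The full-fed (FF) sows had eaten 6.5 kg of feed per day and the restricted (RES) sows 3.25 kg per day over the final 2 weeks before weaning. After weaning both groups received the same ration, and ovaries were taken on day 2 after weaning. GCs of the largest healthy follicle of each sow were cut out by laser capture microdissection, which gave 1 library per sow, 13 from FF sows and 14 from RES sows. The methods state that the sequenced sows were picked for high weight loss within RES and low weight loss within FF, so diet and the selection on weight loss cannot be told apart. The paper also reports that the largest healthy follicle was on average smaller in RES sows, so diet and follicle size cannot be told apart either.

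FSH and LH act on GCs through receptors that couple to the stimulatory G protein. The G protein switches on adenylyl cyclase, the cAMP made by it releases the catalytic subunits of PKA from their regulatory subunits, and the free catalytic subunits phosphorylate CREB1 and other proteins, while phosphodiesterases such as PDE4D break cAMP down. FSHR is present on GCs of antral follicles, whereas mural GCs gain LHCGR as the follicle approaches the preovulatory stage, and theca cells, which lie outside the follicle's basement membrane, carry LHCGR as well.

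Totals of 12299220 to 16021200 counts per FF library, with a median of 13490513, compare with 12942198 to 18120922 per RES library, with a median of 15232600. Values below are normalized counts, that is counts divided by DESeq2's size factors, and fold changes are RES relative to FF on the log2 scale from edgeR's quasi-likelihood test, with a call at a Benjamini-Hochberg adjusted p under 0.05 over all 11384 genes. The summed counts of 10 tested granulosa markers were 109094 to 189862 in FF and 89614 to 240279 in RES, carried mainly by SERPINE2 and VCAN, whereas AMH averaged 5.68 in FF and 7.32 in RES. The 10 tested theca markers summed to 3345 to 14270 in FF and 2305 to 13512 in RES. No sequencing batch is labelled, but the proportion of bases scored 20 or better in the read table left a gap that divided the libraries into an upper read quality group of 7 FF and 7 RES and a lower one of 6 FF and 7 RES. Within the lower group a wider gap set RES sows 3 and 5 below the rest, and no fit of this group left them out. The study's RNA quality listing gives FF sow 10 the lowest RNA integrity number of the 27, whereas the labels name FF09 as the sow dropped for its RNA integrity, so the row of FF sow 10 is uncertain. The lower-group fold changes of both receptors, the interaction tests and the main FF correlations are also given without this sow, which had the lowest FF count for 5 of the 9 members.

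FSHR and LHCGR are neighbours on chromosome 3 of Sscrofa11.1, both on the plus strand. FSHR (ENSSSCG00000029084) lies at chr3:91607236-91775255 and LHCGR (ENSSSCG00000008421) at chr3:91964415-92023821, 189159 bases further on, with 2 RefSeq genes in between. PRKAR2B (ENSSSCG00000037706), at chr9:106851044-106957519 on the plus strand, was the member whose counts rose with LHCGR and fell with FSHR over all sows of each diet. The 250 bases before the RefSeq gene start are shown for these 3 genes, from chr3:91606986-91607235, chr3:91964165-91964414 and chr9:106850794-106851043, because their counts were correlated across sows. Capitals mark a GC box (GGGCGG) or an E-box (CACGTG) on either strand, and the FSHR window holds neither.
FSHR: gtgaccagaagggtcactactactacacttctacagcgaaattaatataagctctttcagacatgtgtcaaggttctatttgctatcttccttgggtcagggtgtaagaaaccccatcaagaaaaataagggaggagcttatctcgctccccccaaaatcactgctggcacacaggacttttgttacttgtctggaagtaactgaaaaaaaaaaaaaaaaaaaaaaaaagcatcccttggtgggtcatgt
LHCGR: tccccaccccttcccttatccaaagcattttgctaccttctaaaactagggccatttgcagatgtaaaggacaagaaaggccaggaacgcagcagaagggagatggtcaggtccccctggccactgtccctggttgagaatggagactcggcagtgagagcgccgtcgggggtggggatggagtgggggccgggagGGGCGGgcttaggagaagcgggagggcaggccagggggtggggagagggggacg
PRKAR2B: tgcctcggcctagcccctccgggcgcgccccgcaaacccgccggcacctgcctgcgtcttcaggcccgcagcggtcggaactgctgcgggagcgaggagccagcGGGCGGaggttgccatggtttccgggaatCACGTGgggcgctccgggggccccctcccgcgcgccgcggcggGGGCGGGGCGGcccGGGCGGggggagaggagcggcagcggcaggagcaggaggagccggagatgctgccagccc
The LHCGR window has 1 GC box, which starts at position −54 from the gene start. The PRKAR2B window has 4 GC boxes, of which 2 overlap by 1 base, and 1 E-box that starts at position −117. A GC box stood in 45.9% of the 19531 windows of this length before RefSeq genes and an E-box in 6.39%. A full cAMP response element (TGACGTCA), found in 1.70% of these windows, was in none of the 3, and neither were its half-site (TGACG, 19.6% of windows), the NR5A1 half-site (AAGGTCA, 3.20%) or an AP-1 site (TGANTCA, 5.25%). Base composition differed as well, with 40.4% G and C before FSHR, 62.0% before LHCGR and 78.4% before PRKAR2B.

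None of the 9 members was called between RES and FF, and 1, LHCGR, had an unadjusted p under 0.05. Of all genes tested, 14.1% were called, 8.29% higher in RES and 5.85% lower, and 3420 of the 11384 had an unadjusted p under 0.05. DESeq2's Wald test also called 0 of the 9, and limma's quality-weighted voom called 1, LHCGR, against 28.0% of all genes.

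**Figure D1:**
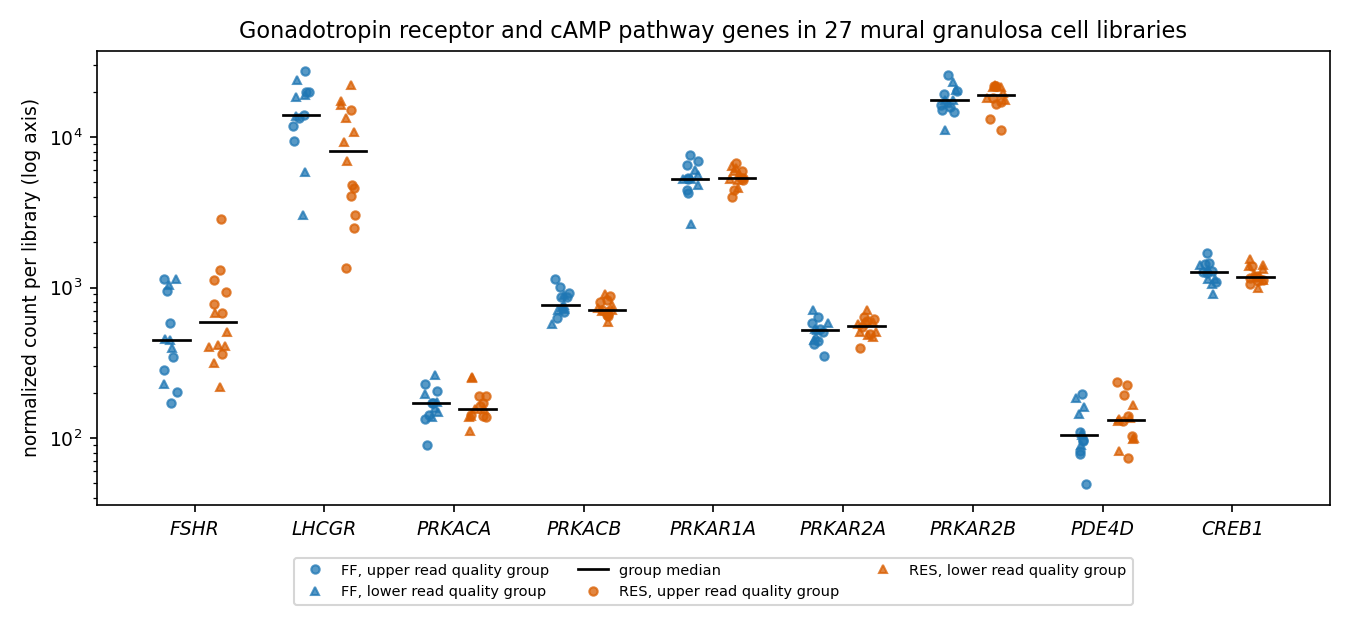
Normalized counts (log axis) of the 9 members in 27 libraries, with 1 point per sow, FF in blue and RES in orange, circles for the upper and triangles for the lower read quality group, and a bar at each group median. FSHR and LHCGR spread over 16.6-fold and 20.2-fold, whereas each of the others stays within 4.82-fold.

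LHCGR, the receptor through which LH drives the final maturation of the follicle, ran from 3048 normalized counts (FF sow 10) to 27315 (FF sow 2) in FF GCs, with a median of 14065. In RES GCs it ran from 1353 (RES sow 4) to 22326 (RES sow 7), with a median of 8076. The groups overlapped broadly, but 10 of 14 RES sows lay below the FF median. LHCGR was 15394 ± 6943 over the 13 FF sows and 9420 ± 6579 over the 14 RES sows (mean ± SD). The log2 fold change was −0.73 (SE 0.35, 95% interval −1.45 to −0.02, edgeR adjusted p = 0.154), so the difference did not pass the test over all genes. Leaving out each library in turn gave −0.90 to −0.64, and none of these 27 fits called LHCGR; the lowest adjusted p, 0.0587, came without RES sow 7. With voom the log2 fold change was −1.22 (adjusted p = 0.00706).

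FSHR, through which FSH supports GC proliferation and estradiol synthesis, was far less abundant and pointed the other way. It ran from 171 (FF sow 7) to 1140 (FF sow 4) in FF GCs, with a median of 451, and from 220 (RES sow 7) to 2850 (RES sow 4) in RES GCs, with a median of 592. The highest value, that of RES sow 4, was far above the next one, 1302 in RES sow 1, and the rest of the RES sows spanned much the same range as the FF sows. FSHR was 568 ± 367 over the 13 FF sows and 783 ± 675 over the 14 RES sows (mean ± SD), and the log2 fold change was 0.42 (SE 0.36, 95% interval −0.31 to 1.155, edgeR adjusted p = 0.453). Without RES sow 4 it was 0.07, and without FF sow 10 it was 0.56.

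Both receptors varied more between sows than most genes. The coefficient of variation of FSHR was 64.7% in FF and 86.1% in RES, and that of LHCGR was 45.1% and 69.8%, against medians of 19.4% and 18.7% over the 6482 genes whose mean normalized count reached 100. FSHR exceeded 98.6% of these genes in FF and 99.4% in RES, and LHCGR exceeded 93.6% and 98.7%. Reads were counted on Ensembl exons and lengths come from RefSeq, and the match of these annotations was not checked, so ratios per kilobase are approximate. Per kilobase of RefSeq exon sequence, the ratio of LHCGR to FSHR ran from 1.67 (FF sow 10) to 85.0 (FF sow 2) in FF, with a median of 24.5. In RES it ran from 0.297 (RES sow 4) to 63.6 (RES sow 7), with a median of 9.82. The ratio was over 5 in 11 of 13 FF sows and in 8 of 14 RES sows, and RES sow 4 was the library in which FSHR was the more abundant of the pair.

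The read quality groups gave different pictures of the receptors. In the upper group LHCGR was 16545 ± 6138 among the 7 FF sows and 5061 ± 4598 among the 7 RES sows (mean ± SD), and 6 of the 7 RES sows lay below the lowest FF sow. The log2 fold change there was −1.74 (SE 0.42, edgeR adjusted p = 0.0147), which passed the test, as did 17.8% of all genes in this group. In the lower group LHCGR was 14051 ± 8153 among the 6 FF sows and 13779 ± 5319 among the 7 RES sows (mean ± SD), with a log2 fold change of −0.05 (SE 0.38, edgeR adjusted p = 0.976). This group called 1 gene of 11384, 0.00878%. Without FF sow 10 the 5 FF sows left in the lower group had 16251 ± 6838 (SD), the log2 fold change of LHCGR was −0.26 (edgeR adjusted p = 0.828) and that of FSHR −0.35 (edgeR adjusted p = 0.725), and edgeR called none of the 11384 genes, 1325 of them with an unadjusted p under 0.05. FSHR was 524 ± 384 in FF and 1146 ± 811 in RES in the upper group, a log2 fold change of 1.11 (SE 0.48, edgeR adjusted p = 0.117), and 619 ± 376 and 420 ± 145 in the lower group, a log2 fold change of −0.63 (SE 0.33, edgeR adjusted p = 0.452). The test of the difference itself, the interaction of diet and read quality group, gave 1.69 for LHCGR (SE 0.61, unadjusted p = 0.00990, edgeR adjusted p = 0.299) and −1.74 for FSHR (SE 0.62, unadjusted p = 0.00961, adjusted p = 0.298). Without FF sow 10 these were 1.48 (unadjusted p = 0.0164) and −1.45 (unadjusted p = 0.0283). No gene of the 11384 passed the interaction test after adjustment, and 1398 of them, 12.3%, had an unadjusted p under 0.05, or 891, 7.83%, without FF sow 10. Among the other members the interaction had an unadjusted p under 0.05 for PDE4D and CREB1 alone, and for neither without FF sow 10.

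**Figure D2:**
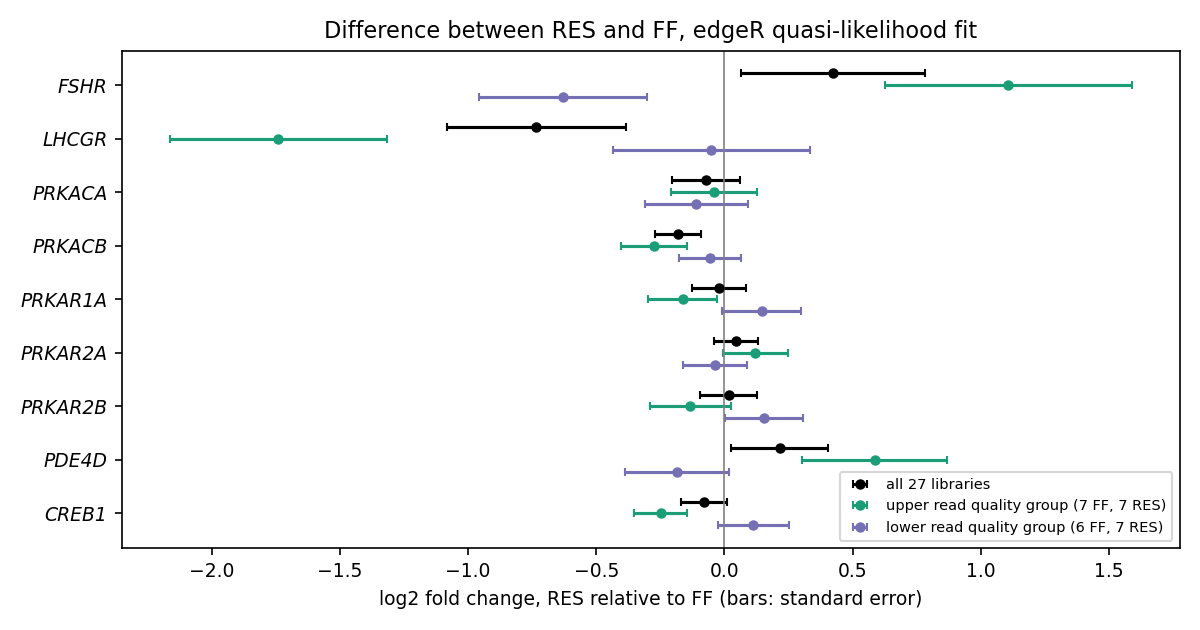
Log2 fold change of each member, RES relative to FF, in all 27 libraries (black), in the upper read quality group (green) and in the lower read quality group (purple), with bars of 1 SE from the edgeR fit. LHCGR stands at −1.74 in the upper and −0.05 in the lower group, and FSHR at 1.11 and −0.63, while the PKA subunits lie between −0.27 (PRKACB, upper group) and 0.16 (PRKAR2B, lower group, 0.057 without FF sow 10).

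No PKA subunit gene was called between the diets. PRKAR2B, the regulatory subunit RIIβ, was the most abundant member, from 11205 (FF sow 10) to 26020 (FF sow 7) in FF, with a median of 17600, and from 11067 (RES sow 4) to 22326 (RES sow 13) in RES, with a median of 18991. The same sows, FF sow 10 and RES sow 4, were the lowest for PRKAR2B and for LHCGR, and the part of RNA integrity in the values of FF sow 10 was not tested. Its means were 18018 ± 3871 for FF (n = 13) and 18736 ± 3492 for RES (n = 14), each ± SD, with a log2 fold change of 0.02 (SE 0.11, 95% interval −0.21 to 0.24, edgeR adjusted p = 0.945). PRKAR2B (RefSeq: 1 transcript) shares exon bases with a RefSeq gene on the opposite strand, and the counting used no strand option, so reads of both cannot be told apart.

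PRKAR1A, the type I regulatory subunit RIα, ran from 2663 (FF sow 10) to 7561 (FF sow 7) in FF and from 4004 (RES sow 4) to 6700 (RES sow 6) in RES, with medians of 5235 and 5339. The means were 5373 ± 1250 for FF (n = 13) and 5448 ± 769 for RES (n = 14), each ± SD, and the log2 fold change was −0.02 (SE 0.10, edgeR adjusted p = 0.922). It too was lowest in FF sow 10 and RES sow 4, and it too shares exon bases with a gene on the other strand, FAM20A. PRKAR2A, the regulatory subunit RIIα, ran from 349 to 707 in FF and from 399 to 713 in RES, with medians of 520 and 558. Its log2 fold change was 0.04 (SE 0.09, edgeR adjusted p = 0.773).

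Of the catalytic subunits, PRKACB ran from 571 (FF sow 10) to 1139 (FF sow 6) in FF and from 593 (RES sow 5) to 907 (RES sow 2) in RES, with medians of 768 and 709, and 10 of 14 RES sows lay below the FF median. The means were 809 ± 159 for FF (n = 13) and 736 ± 90.9 for RES (n = 14), each ± SD. The log2 fold change was −0.18 (SE 0.09, 95% interval −0.36 to 0.0033, unadjusted p = 0.054, edgeR adjusted p = 0.174), which did not pass the test. PRKACA ran from 89.4 to 263 in FF and from 111 to 255 in RES, with medians of 170 and 156 and a log2 fold change of −0.07 (SE 0.13, edgeR adjusted p = 0.757).

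PDE4D, which hydrolyses cAMP, was the member with the fewest counts, from 49.2 (FF sow 3) to 197 (FF sow 2) in FF and from 73.2 (RES sow 4) to 237 (RES sow 1) in RES, with medians of 105 and 132. Its means of 115 ± 43.7 for FF (n = 13) and 139 ± 50.5 for RES (n = 14), each ± SD, gave a log2 fold change of 0.22 (SE 0.19, edgeR adjusted p = 0.471). It was 101 ± 46.4 in FF and 158 ± 62.6 in RES in the upper read quality group and 132 ± 37.3 and 121 ± 28.7 in the lower one, where the FF value without FF sow 10 was 121 ± 29.9. Reads over PDE4D exons that it shares with 2 RefSeq genes on the opposite strand cannot be assigned to either.

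CREB1, the transcription factor that PKA phosphorylates, was among the steadiest members, from 900 (FF sow 10) to 1709 (FF sow 14) in FF and from 990 (RES sow 3) to 1559 (RES sow 7) in RES, with medians of 1259 and 1182. The means were 1264 ± 210 for FF (n = 13) and 1229 ± 162 for RES (n = 14), each ± SD, with a log2 fold change of −0.08 (SE 0.09, edgeR adjusted p = 0.583). In the upper read quality group it was 1355 ± 199 in FF and 1169 ± 107 in RES, and in the lower one 1159 ± 183 and 1290 ± 193, where the FF value without FF sow 10 was 1211 ± 148. CREB1 also shares exon bases with a RefSeq gene on the opposite strand, so its counts and its correlations may include reads of that gene. Counts do not report on its phosphorylation.

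Per kilobase of exon sequence, the order of mean levels was the same in both diets: PRKAR2B, LHCGR, PRKAR1A, FSHR, CREB1, PRKACB and PRKACA. PDE4D and PRKAR2A were left out of this order because RefSeq gives PDE4D 26 transcripts over 46246 exon bases and PRKAR2A a single model of 1236 bases. PRKAR2B stood at 5449 ± 1171 normalized counts per kilobase in FF and 5666 ± 1056 in RES, above LHCGR in 13 of 13 and 14 of 14 sows. LHCGR stood at 3342 ± 1507 and 2045 ± 1428, above PRKAR1A in 11 of 13 FF sows but in 8 of 14 RES sows. FSHR and CREB1 were not separated, with FSHR at 197 ± 128 and 272 ± 234 and CREB1 at 168 ± 27.9 and 163 ± 21.6, and FSHR the higher in 6 of 13 and 8 of 14 sows. PRKACB stood at 113 ± 22.3 and 103 ± 12.7 and PRKACA at 64.2 ± 16.9 and 63.0 ± 15.9, in that order in 26 of the 27 sows.

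Correlations of FSHR and LHCGR with each other and with the other 7 members were then computed across sows within each diet, over 30 pairs in all, 15 per diet, with permutation tests and Benjamini-Hochberg adjustment over the 30. In FF 3 pairs passed, and in RES 4.

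**Figure D3:**
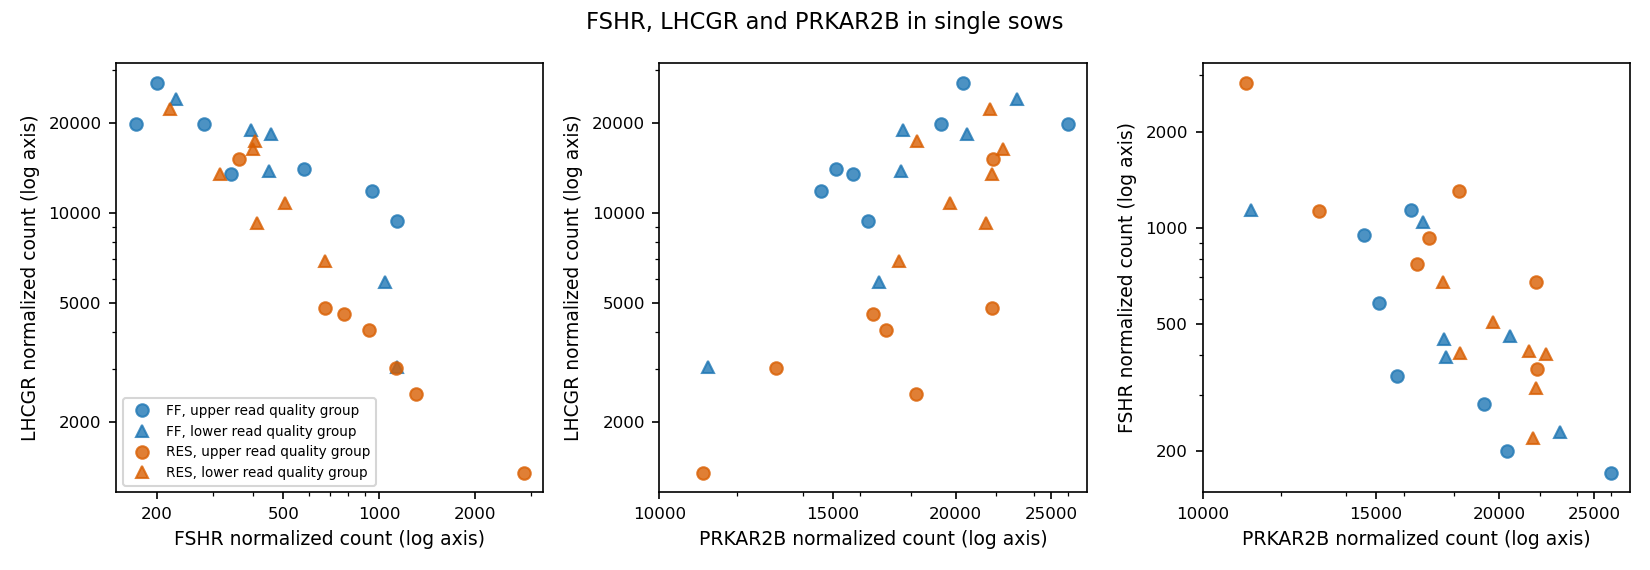
LHCGR against FSHR (left), LHCGR against PRKAR2B (middle) and FSHR against PRKAR2B (right), in normalized counts on log axes, with 1 point per sow, FF in blue and RES in orange, circles for the upper and triangles for the lower read quality group. Sows high in FSHR were low in LHCGR and in PRKAR2B in both diets.

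FSHR and LHCGR were opposed in both diets. In FF GCs Pearson's r was −0.88 (n = 13, permutation p = 3e-05, adjusted p = 0.0009) and Spearman's rho was −0.88 (permutation p = 0.00017). In RES GCs r was −0.69 (n = 14, permutation p = 0.00323, adjusted p = 0.0163) and rho −0.95, at a permutation p of 1e-05, the smallest that 100000 permutations can give. RES sow 4 bends the relation on the linear scale: on log2 counts r was −0.97 in RES and −0.83 in FF. Without the 2 sows farthest from the median of FSHR, r was −0.84 in FF and −0.88 in RES, and without FF sow 10 it was −0.85 in FF. Within the read quality groups r was −0.81 (upper, n = 7, exact permutation p = 0.0242) and −0.97 (lower, n = 6, exact permutation p = 0.00417) in FF, and −0.63 (upper, n = 7, exact permutation p = 0.143) and −0.82 (lower, n = 7, exact permutation p = 0.0248) in RES. With residuals within the quality groups, r in RES was −0.51 and did not pass (permutation test, adjusted p = 0.327). In RES the sows at the ends were the same for both genes: RES sow 4 had the most FSHR and the least LHCGR of all 27, and RES sow 7 the least FSHR and the most LHCGR of the RES sows. In FF they differed: FF sow 4 had the most FSHR and FF sow 10 the least LHCGR, and FF sow 7 the least FSHR and FF sow 2 the most LHCGR.

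PRKAR2B was the PKA subunit that varied with the receptors in both diets. Its r with FSHR was −0.74 in FF (n = 13, permutation p = 0.00312, adjusted p = 0.0163) and −0.83 in RES (n = 14, permutation p = 0.00024, adjusted p = 0.0036). Its r with LHCGR was 0.77 in FF (permutation p = 0.00219, adjusted p = 0.0163) and 0.67 in RES (permutation p = 0.00870, adjusted p = 0.0373). FF sow 10 carried part of the FF relations: without it r was −0.66 with FSHR (permutation test, adjusted p = 0.0866) and 0.67 with LHCGR (permutation test, adjusted p = 0.0744), and neither passed. Without the 2 sows farthest from the median, r with FSHR was −0.67 in FF (adjusted p = 0.0921 by permutation) and −0.85 in RES, and r with LHCGR was 0.71 in FF (adjusted p = 0.0525 by permutation) and 0.77 in RES. The relation of PRKAR2B to LHCGR in RES lost its call when any one of RES sows 2, 3, 4, 7, 9, 10, 11, 12 or 13 was left out, with r from 0.62 to 0.67. Within the quality groups, r with FSHR was −0.66 and −0.84 in FF and −0.80 and −0.73 in RES, upper group first, and r with LHCGR was 0.66 and 0.89 in FF and 0.67 and 0.40 in RES. The lower FF values, here and for the receptor pair, include FF sow 10, and no correlation was computed over the 5 sows left without it. With residuals within the quality groups the RES relation to FSHR passed, at r = −0.77 (permutation test, adjusted p = 0.0307), and that to LHCGR did not, at r = 0.52 (permutation test, adjusted p = 0.166).

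CREB1 followed LHCGR in RES GCs, with r = 0.73 (n = 14, permutation p = 0.00326, adjusted p = 0.0163), whereas r was 0.36 in FF (n = 13, permutation p = 0.230, adjusted p = 0.427) and 0.11 there without FF sow 10. The RES relation rested partly on scale and on 1 sow: rho was 0.55 (permutation test, adjusted p = 0.135), r on log2 counts 0.60 (permutation test, adjusted p = 0.0741), and r without RES sow 7 was 0.60 (permutation test, adjusted p = 0.110). Within the quality groups of RES it was 0.80 (upper) and 0.67 (lower), each n = 7, with exact permutation p = 0.128 and 0.0986, and without the 2 farthest sows 0.81. With residuals within the quality groups it was 0.70 and did not pass (permutation test, adjusted p = 0.0652). With FSHR, CREB1 had an r of −0.38 in RES, which was −0.74 without the 2 farthest sows (permutation test, adjusted p = 0.0293). PRKAR1A had an r of 0.64 with LHCGR in FF (permutation test, adjusted p = 0.0722, and 0.73 with adjusted p = 0.0416 on log2 counts) and of −0.58 with FSHR in RES (permutation test, adjusted p = 0.0813), neither of which passed on normalized counts. Without FF sow 4, PRKAR1A passed in FF with both receptors, at r = 0.76 with LHCGR (permutation test, adjusted p = 0.0178) and −0.77 with FSHR (permutation test, adjusted p = 0.0163), and without RES sow 5 its r with FSHR in RES was −0.67 (permutation test, adjusted p = 0.0368). Other sows moved these values the other way: without FF sow 10 r in FF was 0.45 with LHCGR and −0.34 with FSHR, against −0.53 over all FF sows, and without RES sow 4 r with FSHR in RES was −0.26. Without the 2 farthest sows r was 0.28 with LHCGR in FF and −0.20 with FSHR in RES. No pair of PRKACA, PRKACB, PRKAR2A or PDE4D with either receptor passed in FF or RES.

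**Figure D4:**
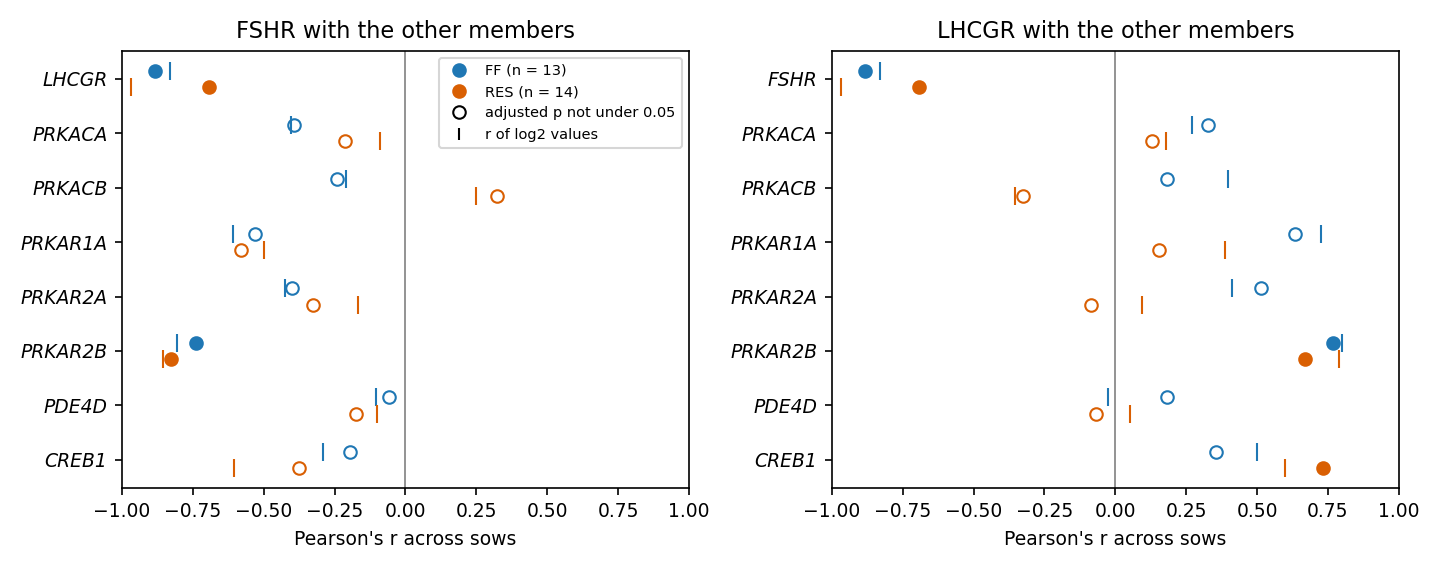
Pearson's r across sows of FSHR (left) and LHCGR (right) with the other members, FF in blue (n = 13) and RES in orange (n = 14), as circles that are filled where the permutation p adjusted over 30 pairs is under 0.05, with a tick at r of log2 counts. The receptors oppose each other, and PRKAR2B falls with FSHR and rises with LHCGR, in both diets.

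No pair's r differed between RES and FF after adjustment (0 of 15, permutation test on Fisher's z). The smallest unadjusted permutation p values were 0.0626 for FSHR with LHCGR and 0.0636 for LHCGR with PRKAR2A, both 0.477 after adjustment, and on log2 counts FSHR with LHCGR gave 0.0199 (adjusted p = 0.298, permutation test). Among the cAMP genes themselves, PRKAR1A and PRKAR2B had the highest r in both diets, 0.78 in FF and 0.75 in RES, given as a description.

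The profile of the receptor pair was also compared with that of every gene, as r of log2 library-scaled counts centred within diet over all 27 libraries, among 7979 genes, as a description with no test. LHCGR was the second most opposed gene to FSHR (r = −0.90), and FSHR the second most opposed to LHCGR. PRKAR2B ranked 14 from the bottom for FSHR (r = −0.85) and 59 from the top for LHCGR (r = 0.79). The 5 genes most like FSHR were JCAD (0.94), SPOCK3 (0.87), the nuclear receptor PPARG (0.86), MICAL3 (0.85) and MCF2 (0.85). The 5 most like LHCGR were SCHIP1 (0.93), ADAMTSL1 (0.93), PANK3 (0.92), RGN (0.92) and LRP8 (0.90), a receptor of the LDL receptor family. PPARG was called higher in RES by 0.95 on the log2 scale (edgeR adjusted p = 0.0315), and RGN lower, with −1.26 (edgeR adjusted p = 0.0196), while the other 8 were not called.

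LHCGR varied with markers of other cell types. The theca list shares STAR and CYP11A1 with the list below of genes that FSH induces in GCs, so its sum can include RNA of GCs. The theca marker CYP17A1, the androgen-making enzyme that GCs largely lack, was 966 ± 701 among the 13 FF sows and 456 ± 441 among the 14 RES sows (mean ± SD), a log2 fold change of −1.11 (SE 0.39, edgeR adjusted p = 0.0523). LHCGR had r = 0.67 with CYP17A1 in FF and 0.64 in RES, and 0.67 and 0.74 with the sum of 8 endothelial markers, with adjusted p = 0.0419, 0.0419, 0.0419 and 0.0190 by permutation over 16 relations. With the theca sum r was 0.64 in FF and 0.59 in RES (permutation test, adjusted p = 0.0419 for both), and with the smooth muscle and pericyte sum 0.26 in FF (permutation test, adjusted p = 0.405) and 0.61 in RES (permutation test, adjusted p = 0.0419). Without the 2 sows farthest from the median, r with CYP17A1 was 0.75 in FF and 0.38 in RES, with the theca sum 0.75 and 0.29, and with the smooth muscle and pericyte sum 0.36 in RES. Without FF sow 10, r of LHCGR in FF was 0.82 with CYP17A1 and 0.83 with the theca sum (permutation test, adjusted p = 0.00536 for both) and 0.62 with the endothelial sum, which then did not pass (permutation test, adjusted p = 0.0707). On ranks the relation of LHCGR to CYP17A1 did not pass in either diet (rho 0.58 in FF and 0.61 in RES, adjusted p = 0.0695 for both, permutation test), and that to the endothelial sum passed in both (rho 0.72 and 0.75, adjusted p = 0.0388 for both, permutation test). The theca and the smooth muscle and pericyte sums did not pass on ranks in either diet. None of the 8 relations of FSHR to theca, endothelial or smooth muscle markers passed on r, but on ranks FSHR and the endothelial sum in RES did, at rho −0.71 (permutation test, adjusted p = 0.0388). INSL3, a theca hormone, was 897 ± 487 and 626 ± 290 (edgeR adjusted p = 0.114), and STAR, which brings cholesterol into mitochondria in theca cells and luteinizing GCs, 2553 ± 2533 and 1390 ± 1926 (edgeR adjusted p = 0.244). Of the endothelial markers 4 of 8 fell, beside 5.85% of all genes called lower in RES. EMCN fell by 0.78, CLDN5 by 0.80, ESAM by 0.62 and CDH5 by 0.56 on the log2 scale, and KDR stood at 409 ± 95.6 and 311 ± 138 (edgeR adjusted p = 0.0774). ESAM was called in 22 of the 27 fits without 1 library and the other 3 in all of them. In the upper read quality group CLDN5 was not called (edgeR adjusted p = 0.0673) and the other 3 were, and in the lower group none of the 4 was called. TIE1 of the same list stood at 54.1 ± 19.8 and 73.9 ± 41.6, a log2 fold change of 0.40 (edgeR adjusted p = 0.227), and PECAM1 at −0.12 (edgeR adjusted p = 0.682). The endothelial sum ran from 1195 to 2405 in FF and from 839 to 2365 in RES. RGS5 and PDGFRB fell among the 7 smooth muscle and pericyte markers (sums 2805 to 8150 and 1889 to 7930), RGS5 in all 27 fits without 1 library but PDGFRB in 12 of them, and ACTA2 stood at 1537 ± 1073 and 1567 ± 938. Of the 7 stroma markers, led by COL3A1 and COL1A2, none was called, and the same held for the 4 immune markers (PTPRC and CD163 led, sums 62.0 to 397 and 43.8 to 307), the erythroid marker ALAS2 and the oocyte markers GDF9 and DDX4. In these bulk samples, fewer cells of a type and less RNA per cell cannot be told apart, and the part of theca or vessel RNA in the LHCGR counts was not tested.

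The other genes of the pathway were counted in 9 lists. Of 129 genes 103 were tested, and 19 were called, 8 higher and 11 lower in RES, which is 18.4% beside the 14.1% of all genes. Over all genes 8.29% were called higher in RES and 5.85% lower, and the counts of the single lists below stand beside these shares. The median log2 fold change over the 103 was −0.04, against −0.015 over all genes tested. Across 27 refits without 1 library each, 12 of the 19 genes kept their call throughout, while GRK3 was called in 8, RAPGEF4 in 11, BTC in 16, PDE10A in 17, ADCY5 in 19 and GNG5 and HSD17B1 in 26 each.

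**Figure D5:**
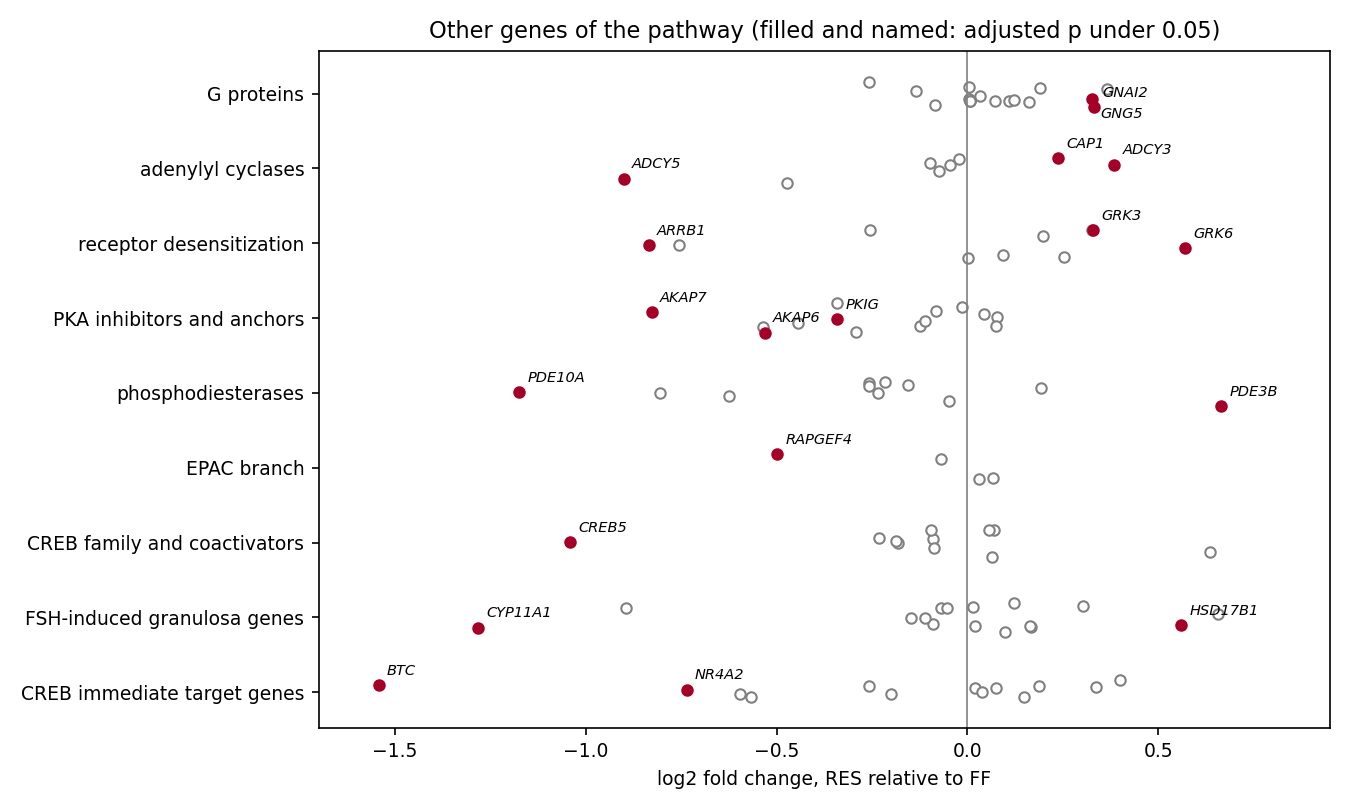
Log2 fold change, RES relative to FF, of the 103 tested genes of the 9 pathway lists, with 1 point per gene, filled and named where the edgeR adjusted p is under 0.05. Most genes lie near 0, and the called ones run from −1.54 (BTC) to 0.67 (PDE3B).

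Of 16 G protein genes 2 rose and none fell, beside 14.1% of all genes called in either direction. GNAI2, an inhibitory α subunit that lowers adenylyl cyclase activity, rose from 1291 ± 219 to 1680 ± 343 (log2 fold change 0.33, edgeR adjusted p = 0.0219), and the γ subunit GNG5 from 824 ± 136 to 1066 ± 224 (0.33, adjusted p = 0.0273). GNG5 lost its call without RES sow 3 (adjusted p = 0.0512). The most abundant of the list, GNA13, was at 2038 ± 233 and 2353 ± 447 and not called.

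The next list held 7 adenylyl cyclases, of which 1 rose and 1 fell, and CAP1, which rose. ADCY3 rose from 143 ± 24.8 to 193 ± 39.7 (log2 fold change 0.38, edgeR adjusted p = 0.0108), and CAP1, a cyclase-associated protein that also binds actin, from 1941 ± 281 to 2358 ± 264 (0.24, adjusted p = 0.0219). ADCY5 fell from 19.7 ± 10.7 to 10.9 ± 5.94 (−0.90, adjusted p = 0.0322), at low counts.

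Receptor desensitization, by which G protein-coupled receptor kinases (GRKs) and arrestins silence an active receptor, had 2 genes higher and 1 lower of 10. GRK6 rose from 56.4 ± 16.5 to 86.7 ± 22.9 (log2 fold change 0.57, edgeR adjusted p = 0.0111), with all 14 RES sows above the FF median, and GRK3 from 285 ± 70.9 to 369 ± 69.6 (0.33, adjusted p = 0.0498). ARRB1, encoding β-arrestin 1, fell from 21.0 ± 8.85 to 12.0 ± 6.86 (−0.84, adjusted p = 0.0191).

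Of 14 PKA inhibitors and anchors, 3 fell and none rose. AKAP7, an anchor that tethers PKA to membranes, fell from 2380 ± 855 to 1368 ± 612 (log2 fold change −0.83, edgeR adjusted p = 0.0131), and AKAP6 from 95.3 ± 31.8 to 67.6 ± 16.7 (−0.53, adjusted p = 0.0213). PKIG, a small inhibitor of the catalytic subunit, fell from 71.2 ± 8.71 to 57.8 ± 8.44 (−0.34, adjusted p = 0.0164), and each of the 14 RES sows lay under the FF median. AKAP9, with the most counts, stood at 11074 ± 2174 and 11996 ± 1929.

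Of 11 further phosphodiesterases, PDE3B, which breaks down cAMP and is held back by cGMP, rose from 67.9 ± 24.2 to 111 ± 31.2 (log2 fold change 0.67, edgeR adjusted p = 0.0143). PDE10A fell from 91.4 ± 64.9 to 41.8 ± 31.6 (−1.18, adjusted p = 0.0349), and the other 9 were not called. In the EPAC branch, the PKA-independent arm of cAMP signalling, RAPGEF4 (EPAC2) fell from 113 ± 23.6 to 82.2 ± 31.4 (−0.50, adjusted p = 0.0399) and 3 RAP genes were not called.

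In the CREB family, 1 of 11 genes fell: CREB5, from 38.1 ± 12.1 to 19.0 ± 10.5 (log2 fold change −1.04, edgeR adjusted p = 0.00406), whereas the coactivators CREBBP and EP300 were not called. Of 16 genes that FSH is known to induce in GCs, HSD17B1, which converts estrone to estradiol, rose from 1925 ± 642 to 2945 ± 880 (0.56, adjusted p = 0.0270), and CYP11A1, which makes pregnenolone from cholesterol, fell from 548 ± 330 to 231 ± 180 (−1.28, adjusted p = 0.00920). CYP11A1 is also strong in theca cells. CYP19A1 and HSD3B1 of the same list were not tested here, and the paper reports lower CYP19A1 expression in RES GCs. HSD17B1 lost its call without RES sow 3 (adjusted p = 0.0512). Of 13 immediate targets of CREB, NR4A2 fell from 23.3 ± 6.40 to 14.4 ± 6.44 (−0.74, adjusted p = 0.0184) and BTC, encoding the EGF-family ligand betacellulin, from 32.9 ± 46.8 to 11.5 ± 8.54 (−1.54, adjusted p = 0.0403). BTC rested on FF sow 14 at 181, and without that sow the log2 fold change was −0.86 (adjusted p = 0.187). Other classic cAMP targets, among them FOS and EGR1, the latter at 148 ± 84.1 and 153 ± 137, were not called.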

How the data were processed

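Per the labels, the file headers and the study's methods, the authors cleaned the reads with SOAPnuke, aligned them with HISAT2 2.2.1 to Sscrofa11.1, kept uniquely mapped reads with SAMtools 1.16.1, removed PCR copies with UMI-tools 1.1.4 and counted read pairs on Ensembl exons with featureCounts 1.6.2, without a strand option although the libraries kept strand. The deposited values are raw counts per gene for 35670 identifiers, 1 library per sow.

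Genes tested had a symbol in the identifier table and a mean count of at least 5, small RNA symbols left out. Diet was tested with edgeR 4.0.16 (TMM, quasi-likelihood, R 4.3.3). Normalized counts are counts divided by DESeq2 1.42.0 size factors over 17467 identifiers. Correlations used 100000 permutations (scipy 1.17.1 and numpy 2.4.6 with pandas 2.3.3 under Python 3.11.15), and all permutations within read quality groups. Figures were drawn with matplotlib 3.10.9. Alternatives were DESeq2's Wald test, limma 3.58.1 voom, other scalings and filters, covariates, a replicate block and leaving out libraries. Positions, upstream sequences and exon lengths come from RefSeq's annotation of Sscrofa11.1, matched by symbol for all 9 tested members. Scripts were tested on simulated data.

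All members were named. From each pathway list up to 4 called genes were named, from each list of other cell markers the 2 with the most counts, and CYP17A1, INSL3 and CYP11A1, and from each likeness ranking the first 5. GNA13, AKAP9, CREBBP, EP300, FOS, EGR1, AMH, CDH5, CLDN5, ESAM, TIE1, PECAM1 and PDGFRB were added after their values were seen. The members and gene lists were chosen with earlier results of these data known. Sows are biological replicates. The lowest raw count of a member in any library was 39, for PDE4D, then 80 for PRKACA and 171 for FSHR.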

Additional observations from a re-analysis of the deposited data

Results flagged for a closer look

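The effect of diet differed between the read quality groups, by the interaction test before adjustment, for 4 of the 9 members, beside 12.3% of all genes, and for 2 of them beside 7.83% without FF sow 10. The difference in log2 fold change, lower minus upper group, was −1.74 for FSHR (unadjusted p = 0.00961), 1.69 for LHCGR (unadjusted p = 0.00990), −0.77 for PDE4D (unadjusted p = 0.0432) and 0.36 for CREB1 (unadjusted p = 0.0409). None passed edgeR's adjustment over all genes (adjusted p = 0.298, 0.299, 0.399 and 0.394). Without FF sow 10, whose quality group is uncertain, the values were −1.45, 1.48, −0.63 and 0.31, and those of PDE4D and CREB1 had unadjusted p values of 0.0955 and 0.0774. FSHR and LHCGR were opposed across sows, so their values are not independent of each other. Whether the groups mark a sequencing batch was not tested.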

How the results depend on the processing

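The count of called members, 0 of 9, held under DESeq2's Wald test, other scalings and filters, the covariates and all 27 leave-one-out fits, and was 1 with voom and 1 in the upper read quality group alone, LHCGR in both. The count of called genes (1610) was 3193 with voom, 1 in the lower quality group alone and 1182 to 2350 leaving out each library. With DESeq2's size factors in edgeR it was 1719, split into 1197 higher and 522 lower against 944 and 666, and the median log2 fold change was 0.028 in place of −0.015. LHCGR stayed negative in every fit.

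Some members turned sign, FSHR and PDE4D from 0.42 and 0.22, the others from values nearer 0, and none of these was called. In the lower quality group alone the log2 fold change was −0.63 for FSHR, 0.15 for PRKAR1A, −0.038 for PRKAR2A, −0.18 for PDE4D and 0.11 for CREB1; without FF sow 10, a fit chosen after seeing the data, these were −0.35, 0.021, −0.082, −0.054 and 0.055. PRKAR1A was 0.020 with DESeq2's size factors, 0.022 with all identifiers, 0.024 with the replicate block and −0.076 to 0.029 leaving out each library. PRKAR2B was −0.0017 with voom, −0.0045 with upper quartile factors, −0.13 in the upper quality group alone and −0.024 to 0.070 leaving out each library.

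Pairs past the threshold in FF (3) were 1 without the 2 farthest sows, 1 without FF sow 10, 5 without FF sow 4, and 1 to 5 over all leave-one-out runs. In RES (4) they were 1 with residuals within the quality groups, 2 without RES sow 7, and 2 to 5 over all leave-one-out runs. Leaving out libraries other than FF sow 10 from the correlations was chosen after seeing the data, as were the counts of pathway genes, which gave 12 to 24 calls over the leave-one-out fits against 19 (12 without RES sow 3), 30 with voom and 0 in the lower quality group. The cause of these shifts was not tested.

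FF and RES sows share numbers only as names: of 13 same-numbered pairs 1 deviated together with r over 0.1 (range −0.24 to 0.31), and no FF sow correlated best with its own number. With the sow number as a replicate block, edgeR called 1084 genes and 0 members, and LHCGR was −0.92. Low counts limit ADCY5, ARRB1, NR4A2 and BTC, and intervals rest on the spread between sows.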
